A study of Mus musculus with 4 samples.

Results

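Cyclosporine A (CsA) and the p38 inhibitor SB203580 were compared directly in MCT cells, a mouse kidney epithelial line, on an RT-PCR array of nephrotoxicity genes. The comparison used 2 of the 4 samples of the series, namely the cells given CsA at 10 μg/ml and the cells given SB203580 at 10 μM, and took in all 84 array genes other than Actb. Both samples came from the same line, which the labels place in the convoluted tubule, grown in DMEM with 10% FBS. Exposure lasted 24 h according to the general culture methods, the labels giving no time. The untreated sample and the sample given 11R-VIVIT, a peptide inhibitor of NFAT, at 1 μM took no part in the difference and are shown only for orientation.

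CsA binds the immunophilin cyclophilin, and the complex blocks calcineurin, a phosphatase that activates NFAT transcription factors in lymphocytes. SB203580 occupies the ATP pocket of the p38α and p38β kinases, which relay stress and cytokine signals to transcription factors and to proteins that control mRNA stability. Tubular epithelium is a site of injury by calcineurin inhibitors, and the array collects genes whose mRNA is known to change in the kidney under toxic drugs. These include secreted injury markers, transporters, detoxifying enzymes and genes of repair. The comparison addresses where the responses to the calcineurin inhibitor and to the p38 inhibitor differ, without an untreated baseline.

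Each gene had 1 Ct per sample, the PCR cycle at which its signal crosses the detection threshold, so that a lower Ct is more mRNA. The difference of a gene is its Ct with SB203580 minus its Ct with CsA, each taken relative to Actb (beta-actin), and positive values are higher with CsA on the log2 scale. Actb differed little, with a Ct of 17.84 with CsA and 17.81 with SB203580. A Ct of 35 or later was set to 35, which made the difference a bound for 3 genes at this limit with CsA alone (G6pc, Fmo2 and Calb1) and for 2 at it with SB203580 alone (Ugt1a6 and Nqo1). Gc, Igfbp1 and Uchl1 were at the limit in both samples and had no value, which left 81 genes, 76 of them measured on both sides. With 1 sample per condition there is no replicate error and no test, so every difference describes these 2 cultures. In RNA from a whole culture, fewer cells expressing a gene and less of its mRNA per cell cannot be told apart.

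Of the 81 genes, 25 (30.9%) were at least 2-fold apart, 10 (12.3%) higher with CsA and 15 (18.5%) higher with SB203580. The genes higher with CsA were Angptl4, CCnd1, Ugt1a6, Vim, Scd2, CCng1, Btg2, Sprr1a, Tnfrsf12a and Rtn4. Those higher with SB203580 included Havcr1, G6pc, Glul, Clu, Slc22a6, Gstk1, Abcc2, Hmox2, Gpx8, Fmo2, Klk1b3, Mt1a, Bhmt and Ccl3. The median difference over all 81 genes was 0.02, with 41 genes above 0 and 40 below. Just inside 2-fold were Rtn4 (1.10) and Tnfrsf12a (1.22) on the CsA side and Ccl3 (-1.06) and Bhmt (-1.15) on the other. Just outside were Ipmk (0.99) and Tmsb10 (0.94), and Fgb (-0.97) and Gpnmb (-0.90). With the 4-sample median in place of Actb, that is the median Ct over the 69 genes before the limit in all of the samples, a choice made after the data were seen, the reference lowered every difference by 0.41. CsA was then higher for 7 genes and SB203580 for 22, so that 24.1% of the genes apart were higher with CsA in place of 40.0%. Rtn4, Sprr1a and Tnfrsf12a passed below 2-fold and Calb1, Cxcl10, Cyp2c11, Fgb, Gamt, Gpnmb and Mcm6 joined those higher with SB203580. A further 11 genes that were less than 2-fold apart turned from above to below 0, namely Aldh1a1, Bmp1, Cat, Cd24, Cdkn1a, Cst3, Ctss, Egf, Fn1, Oat and Ugt1a1. With the median over the 76 genes measured in both samples as the reference, the counts were 11 and 15.

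**Figure D1:**
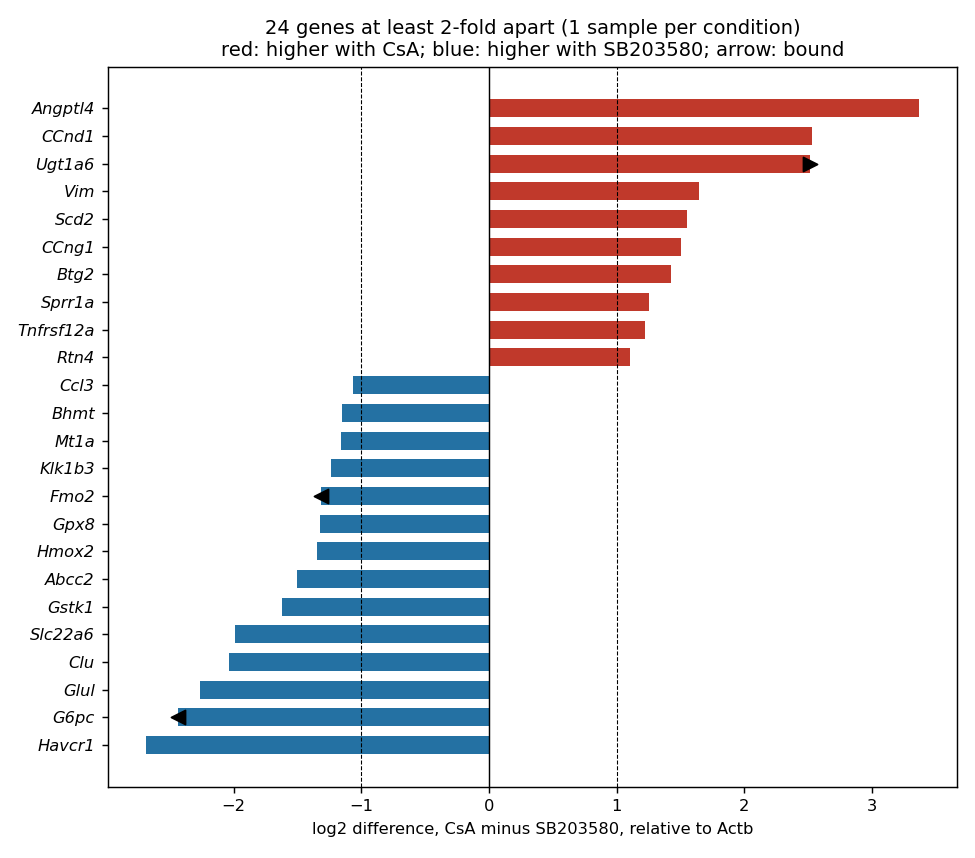
Log2 difference (CsA minus SB203580, relative to Actb) of 24 of the 25 genes at least 2-fold apart, as bars from 0, with 1 sample per condition; dashed lines mark 2-fold and black arrows mark bounds from a Ct at the limit. Angptl4 stands highest at 3.37 and Havcr1 lowest at -2.69.

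Genes of the cell cycle and of the DNA damage response were mostly higher with CsA. Of 7 such genes, 3 were at least 2-fold higher with CsA and 0 with SB203580, beside 12.3% and 18.5% of all genes. Their median difference was 0.84, beside 0.02 for all genes. All amplified before cycle 30 in both samples. The 42 array genes that did so had a median of 0.43, with 8 at least 2-fold higher with CsA and 3 with SB203580. CCnd1 encodes cyclin D1, which drives cells from G1 towards S phase. Its Ct was 23.17 with CsA and 25.67 with SB203580, a 5.77-fold higher level with CsA (log2 difference 2.53). CCng1 (cyclin G1) and Btg2, an antiproliferative factor, were also at least 2-fold higher with CsA. The Ct of CCng1 was 26.23 with CsA and 27.71 with SB203580 (log2 difference 1.51). That of Btg2 was 26.09 and 27.48 (1.43). Other stress genes of the list stayed under 2-fold, with 0.84 for Atf3, 0.71 for Gadd45a and 0.30 for Cdkn1a, the gene of the cell cycle inhibitor p21. Mcm6, a subunit of the replicative helicase, lay on the other side at -0.61. The side of Cdkn1a depended on the reference, with a value below 0 relative to the 4-sample median.

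The cytoskeleton and regeneration genes formed the list with the highest median, 1.18, and all 4 with a value were higher with CsA. Of these, 3 were at least 2-fold higher, beside 12.3% of all genes, or 1 (Vim) relative to the 4-sample median. All but Sprr1a amplified before cycle 30 in both samples, and the 42 array genes that did so had a median of 0.43. Vim encodes vimentin, the intermediate filament of mesenchymal cells that injured tubular cells also make. Its Ct was 20.45 with CsA and 22.07 with SB203580, a 3.13-fold higher level with CsA (log2 difference 1.65). Sprr1a, a small proline-rich protein induced in injured neurons and stressed epithelium, had a Ct of 29.38 with CsA and 30.60 with SB203580 (1.25). Rtn4, which encodes the reticulon Nogo of the endoplasmic reticulum, had a Ct of 23.84 and 24.91 (1.10). The difference of Tmsb10, an actin monomer binding thymosin, was 0.94 at early cycles of 18.28 and 19.20.

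Tnfrsf12a encodes Fn14, the receptor of the cytokine TWEAK. Its Ct was 20.73 with CsA and 21.92 with SB203580, a 2.34-fold higher level with CsA (log2 difference 1.22), or 0.81 on the log2 scale with the 4-sample median. It was the one gene at least 2-fold apart among 6 genes of surface and membrane-binding proteins and lectins, beside 30.9% of all genes. Of the 6 genes, 5 were above 0. Their median was 0.76, beside 0.43 for the 42 genes under 30 cycles in both samples. Cd44, a hyaluronan receptor of injured tubules, was 0.86 higher on the log2 scale with CsA. The galactose-binding lectin Lgals3 (galectin-3) was 0.84 higher and Anxa5 (annexin A5) 0.69 higher. Cd24, a small surface glycoprotein, stood at 0.32, and below 0 relative to the 4-sample median. Gpnmb, a membrane glycoprotein of phagocytic and injured cells, was at -0.90, from late cycles of 34.73 with CsA and 33.80 with SB203580.

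Angptl4 showed the widest gap among genes measured in both samples, while bounds such as those of Ugt1a6, G6pc and Calb1 may hide wider ones. It encodes a secreted inhibitor of lipoprotein lipase and is a target of PPAR and hypoxia signalling. Its Ct was 23.66 with CsA and 26.99 with SB203580, a 10.3-fold higher level with CsA (log2 difference 3.37). Scd2, a desaturase that makes monounsaturated fatty acids, had a Ct of 22.42 with CsA and 23.94 with SB203580 (1.55). The third gene apart among the 6 of lipid, glucose and NADPH metabolism, beside 30.9% of all genes apart, lay on the other side. G6pc, the glucose-releasing phosphatase of kidney and liver, had a Ct of 35.15 with CsA, at the limit, and 32.53 with SB203580, so that it was at least 5.42-fold higher with SB203580. The NADPH-producing enzyme Idh1 was closer, at 0.44, and regucalcin (Rgn) was at -0.15.

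The tubular injury markers were split. Of 6 markers, 2 were at least 2-fold higher with SB203580 and 0 with CsA, beside 18.5% and 12.3% of all genes. The median was 0.03, or -0.38 relative to the 4-sample median. Havcr1 encodes KIM-1, a phosphatidylserine receptor that marks injured proximal tubules. Its Ct was 32.82 with CsA and 30.10 with SB203580, a 6.43-fold higher level with SB203580 (log2 difference -2.69). This was the widest gap on that side among genes measured in both samples, while the bounds of G6pc and Calb1 may hide wider ones. Clu encodes clusterin, a secreted chaperone. Its Ct was 30.39 with CsA and 28.32 with SB203580, 4.11-fold higher with SB203580 (-2.04). The other markers differed by less than 2-fold. Lcn2, the iron-carrier lipocalin NGAL, was 0.72 higher with CsA and Timp1, a metalloproteinase inhibitor, 0.53 higher. Spp1 (osteopontin) was nearly equal, at 28.68 and 28.59 cycles (-0.05), as was the protease inhibitor Cst3 (cystatin C, 0.11).

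**Figure D2:**
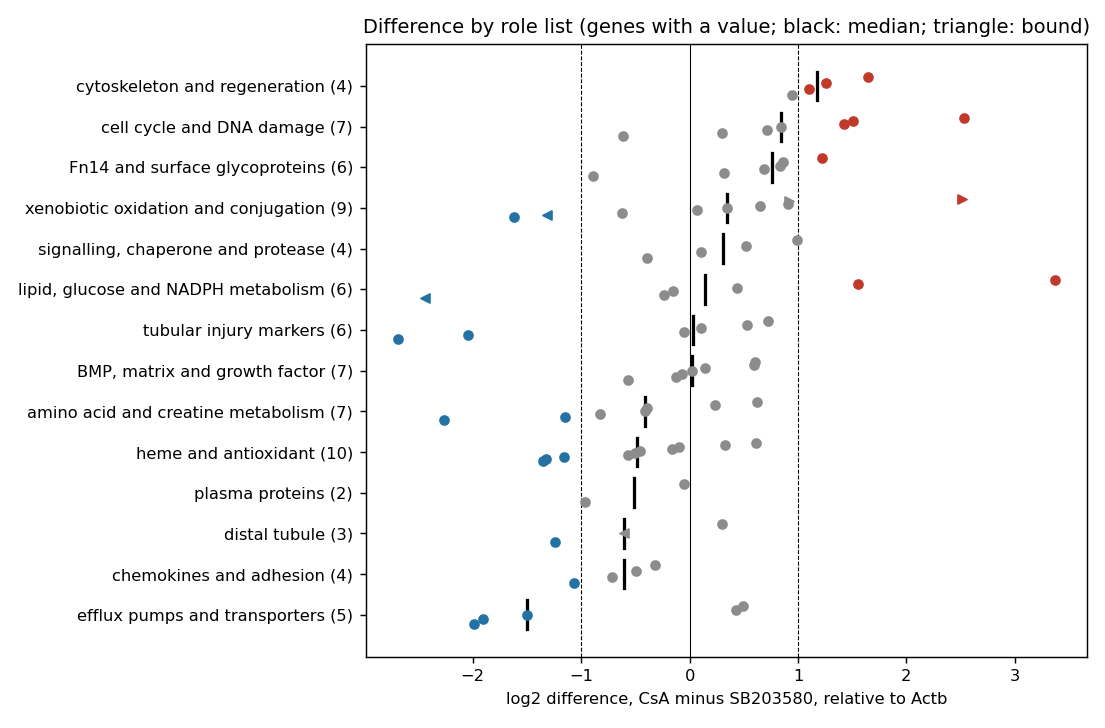
Log2 difference (CsA minus SB203580, relative to Actb) of each gene with a value, by role list, with the number of such genes in parentheses; each point is 1 gene, triangles are bounds, red and blue points are at least 2-fold apart and the black mark is the list median. The cytoskeleton list has the highest median (1.18) and the transporter list the lowest, at a 2.83-fold higher level with SB203580.

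Transporters of drugs and organic ions had the lowest list median, that of Abcc2 below. Of 5 genes, 3 were at least 2-fold higher with SB203580 and 0 with CsA, beside 18.5% and 12.3% of all genes. Slc22a6 encodes OAT1, the organic anion transporter at the basolateral side of the proximal tubule. Its Ct was 34.08 with CsA and 32.06 with SB203580 (log2 difference -1.99). The efflux pump Abcc2 (MRP2) had a Ct of 33.83 and 32.30, 2.83-fold higher with SB203580. Both were late with both compounds and had no value under a Ct limit of 32, which left a list median of 0.46. The 39 array genes at 30 cycles or later in at least 1 of the 2 samples had a median of -0.50. Of them, 12 were at least 2-fold higher with SB203580 and 2 with CsA. The 2 genes of the list that were not higher with SB203580 stood above 0, with 0.49 for Abcb1b, a P-glycoprotein gene, and 0.43 for the carnitine transporter Slc22a5, which had the earliest cycles of the list at 26.17 and 26.57.

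Of 9 enzymes of drug oxidation and conjugation, 1 was at least 2-fold higher with CsA and 2 with SB203580, shares near the 12.3% and 18.5% of all genes, with a median of 0.35, or -0.0627 relative to the 4-sample median. Ugt1a6, a glucuronosyltransferase, had a Ct of 32.52 with CsA and 35.27, at the limit, with SB203580, so that it was at least 5.70-fold higher with CsA. Ugt1a1 comes from the same locus and shares its downstream exons, and its difference was 0.35. Nqo1, a quinone reductase, was also at the limit with SB203580 alone and was at least 0.91 higher on the log2 scale with CsA. Glutathione transferases stood on both sides. Gstk1, the kappa class enzyme of mitochondria and peroxisomes, had a Ct of 32.30 with CsA and 30.65 with SB203580, 3.07-fold higher with SB203580 (-1.62). Gstp1, the pi class enzyme, had a Ct of 20.92 and 21.79 and was 0.90 higher with CsA. Fmo2, a flavin monooxygenase, was at the limit with CsA (35.23) and had a Ct of 33.65 with SB203580, at least 2.49-fold higher with SB203580. The deposited Ct of Fmo2 with SB203580 equals that of Fgb to the last decimal, the only such pair in any of the 4 samples, so both differences rest on a number whose origin could not be checked.

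Of 10 heme and antioxidant genes, 8 were below 0, and the median was -0.48. At least 2-fold higher were 3 with SB203580 and 0 with CsA, beside 18.5% and 12.3% of all genes. Hmox2, the constitutive heme oxygenase, had a Ct of 28.25 with CsA and 26.87 with SB203580, 2.54-fold higher with SB203580 (log2 difference -1.35). The inducible heme oxygenase Hmox1 was at -0.50, with 30.14 and 29.61 cycles. Gpx8, a peroxidase of the endoplasmic reticulum, had a Ct of 27.20 with CsA and 25.85 with SB203580 (-1.32), and was among the few genes higher with SB203580 that amplified before cycle 30 in both samples. The Ct of Mt1a was 22.08 with CsA and 20.88 with SB203580 (-1.16). Which gene this assay measures is unclear, because in the mouse annotation Mt1a appears solely among the synonyms of Polr2k. The count of 3 and the list median include it all the same. Nox4, a NADPH oxidase that makes hydrogen peroxide in the kidney, was at -0.57, and the copper carrier ceruloplasmin (Cp) at -0.46. Sod2, the mitochondrial superoxide dismutase (0.61), and catalase (Cat, 0.33) were the genes above 0, Cat only with references other than the 4-sample median.

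Amino acid and creatine metabolism had 2 of 7 genes at least 2-fold higher with SB203580 and 0 with CsA, beside 18.5% and 12.3% of all genes. The list median was -0.41. Glul encodes glutamine synthetase, which joins ammonia to glutamate. Its Ct was 34.48 with CsA and 32.18 with SB203580, 4.81-fold higher with SB203580 (log2 difference -2.27). Bhmt, which remethylates homocysteine with betaine, had a Ct of 33.00 and 31.82 (-1.15). Glul and Bhmt were thus both late. Of the 39 array genes at 30 cycles or later in at least 1 sample, 12 were at least 2-fold higher with SB203580. The creatine enzymes Gamt and Gatm lay on the same side under 2-fold, at -0.83 and -0.41. Odc1, the first enzyme of polyamine synthesis, was 0.63 higher with CsA at early cycles of 21.13 and 21.72.

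All 4 chemokine and adhesion genes were below 0, with a median of -0.61. Of these, 1 was at least 2-fold higher with SB203580, beside 18.5% of all genes. Ccl3, a chemokine for monocytes and lymphocytes, had a Ct of 33.34 with CsA and 32.24 with SB203580 (log2 difference -1.06), and -0.99 where each cycle was taken to multiply the product 1.9-fold. The interferon-induced chemokine Cxcl10 was at -0.71, the adhesion molecule Vcam1 at -0.50 and the neutrophil chemokine Cxcl1 at -0.32. Cxcl1 was the only one of these with early cycles, 22.70 and 22.34. The 39 array genes at 30 cycles or later in at least 1 of the 2 samples had a median of -0.50, with 28 below 0. Of the plasma proteins, the fibrinogen chain Fgb was at -0.97 and the protease inhibitor A2m at -0.06.

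Among 3 distal tubule genes, Klk1b3, a kallikrein, was 2.36-fold higher with SB203580, with a Ct of 34.01 with CsA and 32.74 with SB203580 (log2 difference -1.24). Of the 39 array genes at 30 cycles or later in at least 1 sample, 12 were at least 2-fold higher with SB203580. Calb1 (calbindin, a calcium buffer of distal cells) was at the limit with CsA and had a Ct of 34.36 with SB203580, at least 0.60 higher on the log2 scale. With the late Ct of 37.31 used as measured, its difference was -2.92. Egf, a tubular growth factor, stood at 0.30 and alone kept a value under a Ct limit of 32. None of the 7 BMP, matrix and growth factor genes with a value was 2-fold apart, beside 30.9% of all genes. They ranged from -0.57 for Igfbp3, a carrier of insulin-like growth factors, to 0.61 for Cyr61, a matricellular protein, with the calcification inhibitor Mgp at -0.12. Among 4 genes of signalling, folding and proteolysis, inositol polyphosphate multikinase (Ipmk) was at 0.99 and the cytokine signalling inhibitor Socs3 at 0.52, and the chaperone Hsp90aa1 at -0.39.

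The genes least apart among those detected in both samples were Bmp1 (0.02), Spp1 (-0.05), A2m (-0.06), Aldh1a1 (0.07) and Bmp4 (-0.07), and the largest gap of these was 1.05-fold. Bmp1 is the procollagen C-proteinase and Bmp4 a morphogen of the TGF-β family. Within 1.2-fold of each other were 14 of the 76 genes measured in both samples. With 1 Ct per gene and sample, a small gap does not show that the compounds act alike on a gene. The sign of Bmp1 turned with no reference gene, and that of Aldh1a1 relative to the 4-sample median.

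The other samples show which compound stood farther from untreated cells, whose Ct enters both values side by side here. Of the 10 genes higher with CsA, untreated cells were at the limit for Ugt1a6, and of the other 9 CsA lay farther from untreated cells for 7. The genes were picked by the gap between the compounds, and the share over all genes was not counted. Angptl4 was 5.14 above untreated cells with CsA and 1.77 above with SB203580 on the log2 scale. Vim was 2.47 above with CsA and 0.82 above with SB203580. Scd2, CCng1 and Tnfrsf12a lay close to untreated cells with SB203580 (0.04, -0.14 and -0.07) and above them with CsA (1.59, 1.37 and 1.15). SB203580 lay farther for CCnd1, at -1.58 against 0.95 with CsA, and for Btg2, at -1.02 against 0.41. These last genes were thus apart chiefly by a lower level with SB203580.

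Of the 15 genes higher with SB203580, CsA lay farther from untreated cells for 8 and SB203580 for 7. Here too the share over all genes was not counted. Havcr1 was -2.10 with CsA and 0.59 with SB203580, Glul -2.57 and -0.30, and G6pc at most -2.21 and 0.23. Slc22a6 was -1.32 with CsA and 0.66 with SB203580. The gaps of these genes came mainly from lower levels with CsA. Clu showed the reverse, with -0.66 with CsA and 1.37 with SB203580, and Hmox2 had -0.60 and 0.75. The untreated level lay between the levels with both compounds for 12 of the 15, and for Glul, Gstk1 and Gpx8 it lay above both. With 11R-VIVIT the level was nearer to SB203580 than to CsA for 8 of the 10 genes higher with CsA, other than Btg2 and CCnd1. The same held for 11 of the 14 genes higher with SB203580 that were detected with 11R-VIVIT, other than Clu, Hmox2 and Klk1b3. These genes were picked by the gap between CsA and SB203580, and the share over all genes was not counted. Nearness therefore does not show that 11R-VIVIT acts like SB203580. Against untreated cells, 11R-VIVIT was at -0.05 for Scd2, -0.0041 for Vim, 0.08 for Tnfrsf12a and 0.09 for Sprr1a, but at 0.88 for Angptl4 and 0.71 for Rtn4. For Mt1a the level with 11R-VIVIT was far above both, at a Ct of 16.96.

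**Figure D3:**
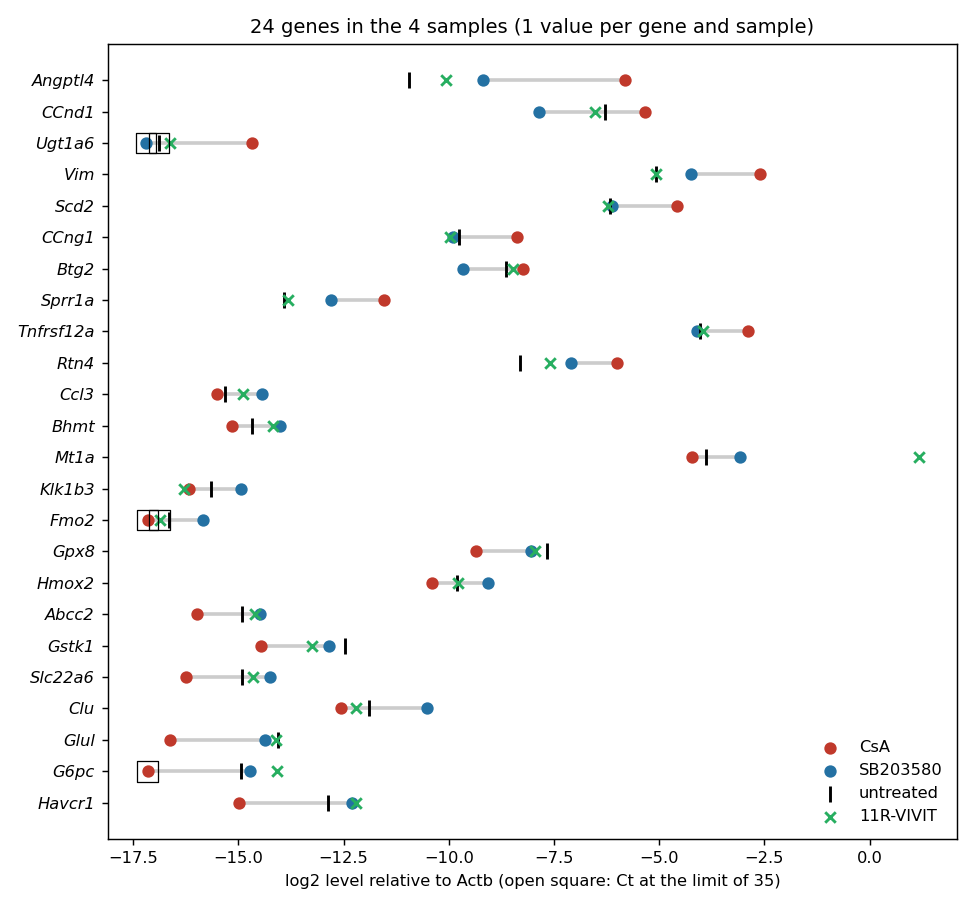
Log2 level relative to Actb of 24 of the 25 genes at least 2-fold apart in each of the 4 samples, with 1 value per gene and sample; the grey line joins CsA (red) and SB203580 (blue), black ticks are untreated cells, green crosses 11R-VIVIT and open squares a Ct at the limit. For Angptl4, Vim and Sprr1a both compounds lie above untreated cells and CsA farther, while for CCnd1 and Btg2 untreated cells lie between them.

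The side on which a gene fell went with how late it amplified. Ranked by the mean Ct of the untreated and 11R-VIVIT samples, which do not enter the difference, the 24 genes under 25 cycles had a median difference of 0.61, the 18 from 25 to under 30 a median of 0.31, and the 39 at 30 or later a median of -0.57. In the earliest bin, 4 genes were at least 2-fold higher with CsA and 1 (Mt1a) with SB203580. In the latest bin these were 2 and 12. Across the 76 genes measured in both samples, the difference was correlated with this Ct (Pearson r -0.38, Spearman rho -0.43), given as a description since all genes share the same 2 samples and the same Actb values. A reference shifts every difference by the same amount, so it leaves this order as it is. Of the 42 genes with a Ct under 30 in both samples, 8 were at least 2-fold higher with CsA and 3 (Hmox2, Gpx8 and Mt1a) with SB203580. A late Ct rests on few copies of the template and is less precise, and its part in the differences of the late genes, among them Havcr1, Glul, the transporters and Ccl3, was not tested. With a Ct limit of 32, 9 genes were higher with CsA and 6 with SB203580, and Glul, G6pc, Fmo2, Slc22a6, Abcc2, Klk1b3, Bhmt, Ccl3 and Ugt1a6 were not among them.

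**Figure D4:**
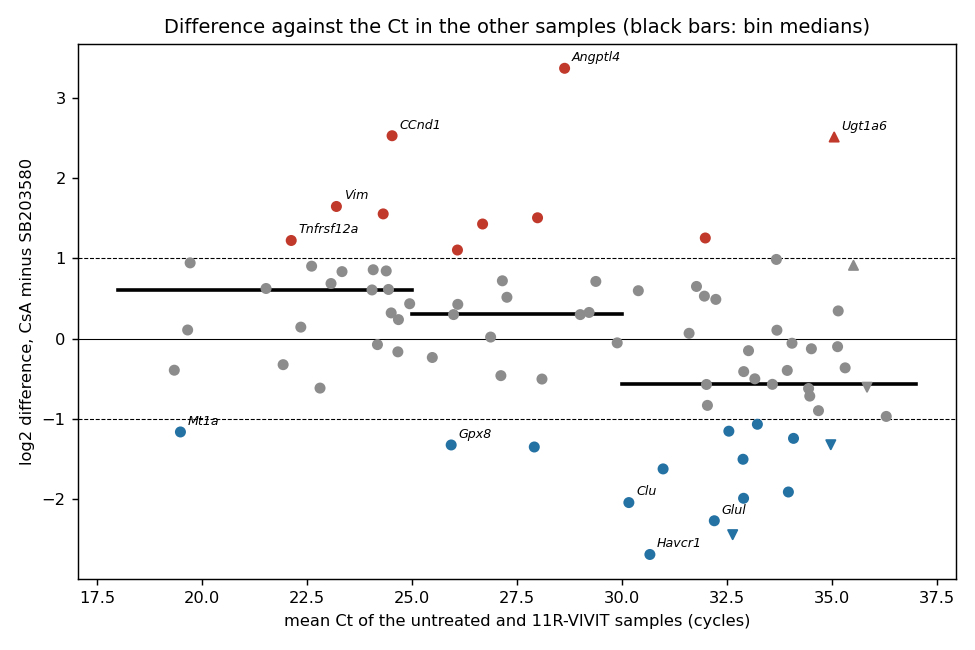
Log2 difference (CsA minus SB203580, relative to Actb) of 81 genes against the mean Ct of the untreated and 11R-VIVIT samples, in cycles; red points are at least 2-fold higher with CsA, blue points with SB203580, grey points less than 2-fold apart, triangles are bounds and black bars are the medians of the genes under 25, from 25 to under 30 and from 30 cycles. The medians go from 0.61 through 0.31 to -0.57.

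The array holds few genes that define a cell type, so the labelled tubule origin could be checked only weakly. Of 11 proximal tubule markers the table holds 5, among them Havcr1, Slc22a6, Gatm and Aldh1a1, all detected in both samples. Havcr1, Slc22a6 and Gatm amplified late, from 30.10 to 34.08 cycles, a range that also holds the immune markers below. Detection at such cycles does not set tubule markers apart from immune ones. Aldh1a1 had a Ct of 29.84 with CsA and 29.88 with SB203580. Havcr1 and Slc22a6 are among the genes higher with SB203580. The 2 distal markers in the table were Egf, detected in both, and Calb1, detected with SB203580 alone. Cd24, the 1 general epithelial marker in the table, and Vim, the 1 mesenchymal marker, were detected in both samples, with differences of 0.32 and 1.65. The 2 immune markers in the table were Ccl3, at 33.34 cycles with CsA and 32.24 with SB203580 (-1.06), and Ctss. Ctss, a cathepsin of antigen-presenting cells, was detected late at 32.73 cycles with CsA and 32.80 with SB203580, a difference of 0.11, or below 0 relative to the 4-sample median.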

How the data were processed

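Total RNA of 4 MCT cultures, 1 per condition, was reverse transcribed by the authors and measured with SYBR green on a mouse nephrotoxicity PCR array. The authors deposited raw Ct values with no normalization, 1 per gene and sample. Whether wells were repeated is not given in the sources used here. Their deposited table of fold values against untreated cells was not used. Differences between CsA and SB203580 were calculated from the Ct by the delta-delta Ct method with Actb, amplification base 2 and a Ct limit of 35. A gene was counted as apart at 2-fold or more, bounds included. The members, role lists and tests were chosen with earlier results of these data known. A first set of lists held 67 of the 84 genes, and 16 were added after their values were seen. Results of 3 genes are not reported here by name, though the counts include them. Named were all genes apart, those at the limit in 1 sample, those nearest to the threshold and to 0, those the study names, those whose side turned, and the largest of each list. Cyp2c11 and Cyp2d4 matched no symbol or synonym of the mouse annotation GRCm38.p6, and 5 symbols matched only a synonym. The number of samples limits the precision. The calculation was run on simulated data without noise, with known changes in genes under 30 cycles. This checks the arithmetic alone and not the precision of late genes. Python 3.11.15, numpy 2.4.6, pandas 2.3.3, scipy 1.17.1 and matplotlib 3.10.9 were used.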

Additional observations from a re-analysis of the deposited data

How the results depend on the processing

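No paired analysis was possible because each condition has 1 sample. Of 542 differences of single genes recalculated under 7 settings, 526 kept their side of 2-fold, 5 passed below it and 11 above it. The tally leaves out genes that lost their value, so that it covers 56 genes in place of 81 at a Ct limit of 32. The median over both samples, no reference and the median difference set to 0 shifted measured differences by only 0.03, -0.03 and -0.04. Little change was possible there. A reference shifted differences by at most 0.41 in size, too little to turn the sign of a gene at least 2-fold apart, and none turned. The counts follow the threshold, with 25 genes higher with CsA and 22 with SB203580 at 1.5-fold (53.2% of the genes apart higher with CsA, in place of 40.0%), and 4 higher with CsA and 7 with SB203580 at 3-fold. Fewer genes have a value with a Ct limit of 32, which left 6 genes higher with SB203580, and among genes under 30 cycles in both samples, a choice made after the data were seen, 3 were. With the limit of 32, the list medians of the distal tubule genes (0.30) and of the transporters (0.46) turned positive. The median of the BMP, matrix and growth factor genes turned to -0.0122 with no reference, -0.0259 with no Ct limit and -0.0234 with the median difference set to 0, and that of the injury markers to -0.0043 with no reference and -0.0155 with the median difference set to 0. Setting the median to 0, leaving out Fgb and Fmo2, and the 4-sample median as the reference were chosen after the data were seen. With the 4-sample median, the medians were -0.39 for BMP, matrix and growth factor genes, -0.27 for lipid, glucose and NADPH metabolism, -0.10 for signalling, chaperone and protease genes, -0.38 for injury markers and -0.0627 for xenobiotic enzymes. Ipmk reached 2-fold (1.02) against the median Ct over the genes measured in both samples, and Fgb did (-1.0003) with no reference. Without Fgb and Fmo2, 14 genes were higher with SB203580. The cause of these changes was not tested.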
